A study of Mus musculus with 25 samples.

Results

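The fecal bacteria of ovariectomised mice were set against those of sham-operated mice, in 5 OVX and 5 Sham libraries out of 25 in the series. The 10 libraries were chosen by the group names in the columns of a count table. OVX is the usual abbreviation of ovariectomy, the removal of the ovaries, and Sham of the operation that leaves them in place. All mice were C57BL/6, and neither of these groups was given a further treatment in its labels. The 3 other groups of the series were OVX+GEX, OVX+PBS and OVX+FMT, and their libraries served to estimate the spread in the abundance tests, to set the common read depth and to describe how widely ASVs were found. Age, cages and litters were not given in the labels, so every p-value below measures the spread between these libraries. The labels give every mouse as male although ovaries were removed, so no sex is stated here.

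The ovaries are the main source of circulating estrogen, and ovariectomy is used as a model of estrogen loss after menopause. Estrogens are excreted in part through the bile as conjugates, and gut bacteria can free them for reuptake. The mouse gut is dominated by anaerobic clostridia of the families Lachnospiraceae and Oscillospiraceae, which ferment plant fibre to short-chain fatty acids, and by Muribaculaceae and lactobacilli.

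The measurement was a count of long 16S rRNA gene reads per amplicon sequence variant (ASV, a distinct gene sequence left after error removal), each with a name at 7 ranks. Totals ran from 9735 to 22404 counts in Sham, where replicates 3 and 4 were deeper than the rest, and from 9189 to 11252 in OVX. Where a taxon had 0 counts, its true share could still be as high as 3 counts per library, or 0.0134% to 0.0308% in Sham and 0.0267% to 0.0326% in OVX. These limits cover counting error only, and they take a 0 as no read at all. If single reads stand as 0 in the table, the limits are higher. The folds given below as at least a value would then be smaller. Of the 1555 ASVs in the series, 1170 had counts in the 10 libraries, 908 of them in Sham and 710 in OVX. No value in the table was 1, so the rarest ASVs of each library are not part of any measure here. No libraries were copies of each other: the smallest Bray-Curtis distance between any pair of the 10 was 0.318.

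Richness was lower after ovariectomy at the ranks of ASV, species and genus, but no difference was detected at the rank of family. The richness tests of species, genera and families were added after the data were seen. Richness is the number of taxa expected in a random draw of 8498 reads, the smallest library total of the series. For ASVs it was 320.5, 346.5, 356.7, 415.6 and 350.3 in the Sham libraries (replicates 1 to 5) and 234.1, 318.5, 236.9, 254.3 and 217.7 in the OVX libraries. Every OVX library lay below every Sham library, although OVX replicate 2 lay just under Sham replicate 1. The mean fell by 105.6 ASVs, or 29.5% (exact two-sided permutation p = 0.00794, the smallest that 252 splits allow, adjusted p = 0.0317 over 4 community measures). That adjusted p became 0.0635 without Sham replicate 2, 4 or 5, with differences of -108.5, -91.2 and -107.5, and 0.107 without the deep Sham replicates 3 and 4 together, with a difference of -86.8. With both left out the test has fewer splits, and no measure could have passed alone.

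The fall in genera was smaller in size and tighter than that in ASVs. Sham libraries held 67.9, 66.0, 71.2, 68.8 and 65.9 expected genera, and OVX libraries 63.6, 59.9, 59.0, 59.0 and 58.9. In species the values were 97.9, 99.9, 108.8, 106.3 and 95.9 in Sham against 90.4, 88.8, 86.0, 84.0 and 80.9 in OVX. At both ranks the groups did not overlap, and OVX replicate 2, the richest OVX library in ASVs, lay with the other OVX libraries. Means were 68.0 ± 2.19 and 60.1 ± 2.01 genera and 101.8 ± 5.57 and 86.0 ± 3.80 species (SD, n = 5, exact permutation p = 0.00794 for each, adjusted p = 0.0106 over 4 ranks). Families numbered 23.01 ± 2.64 and 22.2 ± 1.10 (exact permutation p = 0.484), and the sign of that difference turned without Sham replicate 3, to 0.07.

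**Figure D1:**
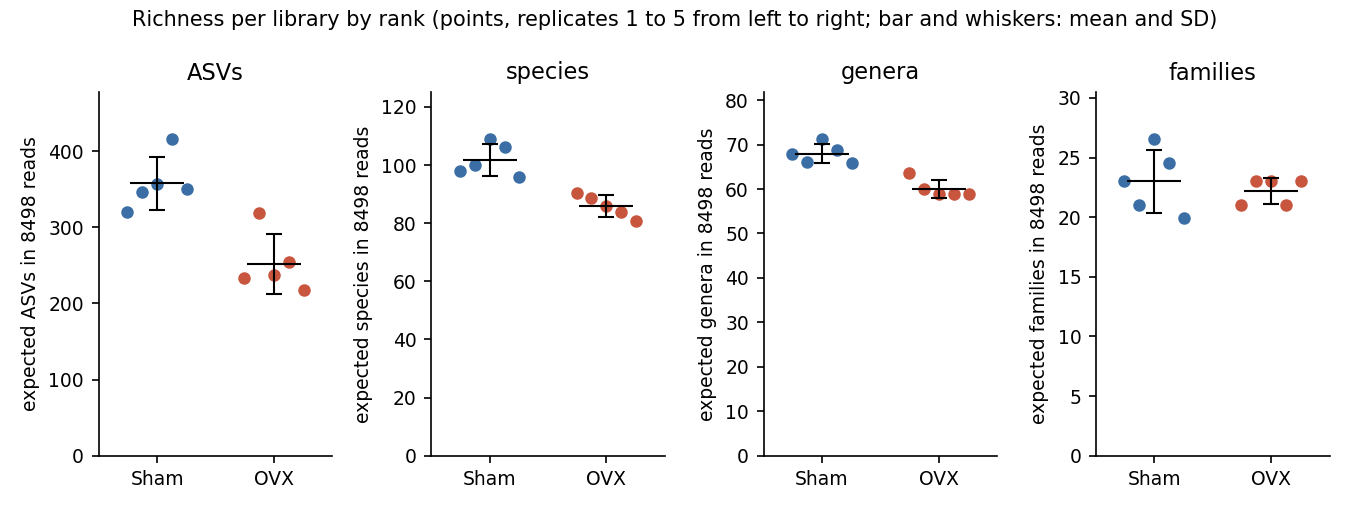
Expected numbers of ASVs, species, genera and families in 8498 reads per library, with replicates 1 to 5 from left to right and the mean and SD of each group. All 5 OVX points lie below all 5 Sham points for ASVs, species and genera, and the groups overlap for families.

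The Shannon index, which weighs richness by how evenly counts are spread, fell from 4.91 ± 0.156 to 4.35 ± 0.324 (SD, n = 5, difference -0.55, exact permutation p = 0.0238, adjusted p = 0.0476). OVX replicate 2 stood at 4.92, at the Sham mean, while the other OVX libraries lay between 4.13 and 4.29. The call was lost, with an adjusted p of 0.0635, without any 1 of Sham replicates 2, 4 and 5 or OVX replicates 1, 3, 4 and 5, and the difference then lay between -0.54 and -0.50. Pielou evenness averaged 0.832 and 0.787 in the same order, a difference that did not pass (exact permutation p = 0.0714, adjusted p = 0.0952), and without OVX replicate 2 its difference was -0.0620 with an adjusted p of 0.0212. The most abundant ASV took 5.90% of Sham and 6.16% of OVX counts (exact permutation p = 0.81).

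The lower ASV number was a net sum of losses and gains. Because the expected number of ASVs is a sum over ASVs, each ASV's part can be read off exactly: 716 ASVs were more often expected in Sham, with a sum of -185.6, and 431 in OVX, with a sum of 80.0. Most of the net difference lay among uncommon ASVs. The 33 ASVs with a mean share of at least 0.5% made up -1.40 of it, although they held 50.02% of Sham and 63.1% of OVX counts. Presence in a draw left these 33 little room to differ, with 31.8 expected in Sham and 30.4 in OVX. The 116 ASVs between 0.1% and 0.5% made up -19.9, the 308 between 0.02% and 0.1% made up -39.7 and the 713 below 0.02% made up -44.7. ASVs seen in only 1 of the 25 libraries contributed -14.6, and those seen in 13 or more contributed -15.3, so the difference was not limited to ASVs of single libraries.

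Lachnospiraceae, clostridia that include many butyrate and acetate formers, held the largest part of the net difference, 59.1%. Their expected ASV number was 120.9, 153.9, 132.7, 184.9 and 172.7 in Sham and 63.6, 157.5, 97.9, 73.8 and 59.9 in OVX. Of the OVX libraries, 4 lay below all Sham libraries, while OVX replicate 2 lay inside the Sham range. The means were 153.0 ± 26.7 and 90.6 ± 40.3 (SD, n = 5, difference -62.5, exact permutation p = 0.0397, adjusted p = 0.131 over 11 families). Oscillospiraceae, the family of many fibre-degrading clostridia, held a further 17.1%, where 91.7 ± 7.16 ASVs in Sham stood against 73.6 ± 16.9 after ovariectomy (SD, n = 5, exact permutation p = 0.0635, adjusted p = 0.131).

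No family passed the threshold on its own. Among the 11 families with at least 5 expected ASVs, 9 were lower in OVX and 0 (0%) had an adjusted p under 0.05, while 3 had an unadjusted exact permutation p under 0.05. The smaller families pointed mostly the same way, with differences of -5.10 in Clostridiaceae, -4.85 in Eubacteriaceae, -4.07 in Erysipelotrichaceae and -3.00 in Peptococcaceae. Eubacteriales Family XIII, a small group that includes amino acid fermenters, had little spread: 9.98, 11, 8.91, 10.9 and 8.99 ASVs in Sham against 8.94, 8.0, 7.0, 7.97 and 8.0 after ovariectomy (exact permutation p = 0.0159, adjusted p = 0.131). The 2 families with slightly more ASVs in OVX were Muribaculaceae, which use plant and host glycans (difference 1.00), and the lactic acid-forming Lactobacillaceae (difference 1.05).

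**Figure D2:**
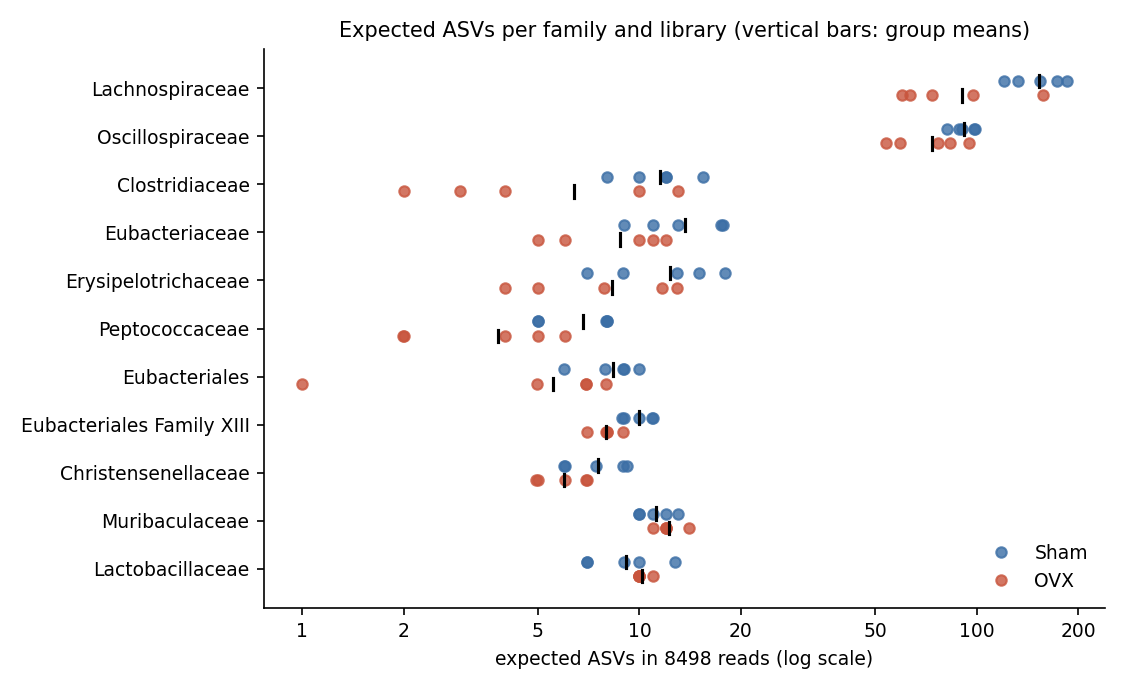
Expected ASVs in 8498 reads per library (log scale) for the 11 tested families, with vertical bars at the group means. Lachnospiraceae fell between 59.9 and 157.5 in OVX and between 120.9 and 184.9 in Sham, and 9 of the 11 families had a lower mean in OVX.

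By genus the net difference was spread widely. Of 27 genera with at least 3 expected ASVs, 25 were lower and 2 higher in OVX, 0 (0%) passed after adjustment and 4 had an unadjusted exact permutation p under 0.05. Kineothrix, a butyrate-forming genus of the Lachnospiraceae, held 15.2% of the net difference: 36.0, 36.0, 28.9, 29.1 and 53.9 ASVs in Sham against 11.9, 33.0, 29.0, 19.9 and 9.97 in OVX. Its groups overlapped, since OVX replicates 2 and 3 reached the lower Sham values (difference -16.0, exact permutation p = 0.0397, adjusted p = 0.214). Lachnoclostridium, a genus with choline-using members, had 27.7 ± 8.04 and 15.8 ± 10.1 ASVs (SD, n = 5), and all OVX libraries other than replicate 2, at 32.9, lay below all Sham libraries. The same 4 libraries were below all Sham libraries for Lacrimispora, with means of 15.4 and 9.16, and for Marvinbryantia, a hydrogen-consuming acetogen, with means of 5.95 and 2.80.

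Other genera with large parts were Acetivibrio, a cellulose degrader (25.1 and 19.3 ASVs in Sham and OVX), Eubacterium (13.5 and 8.79), Faecalimonas (9.18 and 4.57), Hungatella (8.14 and 4.40) and the acetogen Blautia (10.1 and 6.99). The smallest adjusted p among all 27 genera was 0.214. Butyribacter, whose cultured species form butyrate, was too poor in ASVs for the test and nearly absent from OVX. It had 4.00, 0.998, 4.00, 4.85 and 3.00 expected ASVs in Sham and 1.00, 0, 0, 0 and 0 in OVX.

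**Figure D3:**
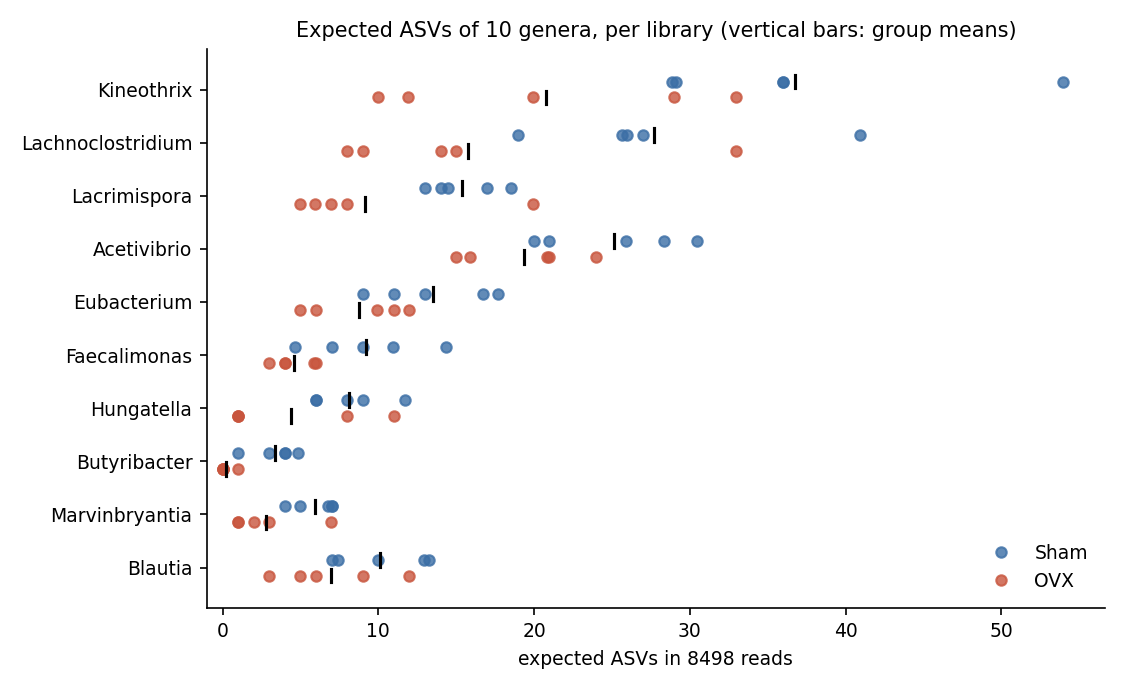
Expected ASVs in 8498 reads per library for the 10 genera with the largest differences, with vertical bars at the group means. Butyribacter was at 0 in 4 of 5 OVX libraries, and in Lachnoclostridium and Lacrimispora a single OVX point, replicate 2, lies among or above the Sham points.

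Reads taken up by abundant genera leave fewer for the rest, so richness was also computed without these genera. Duncaniella, the leading genus of Muribaculaceae here, and Ligilactobacillus, a lactic acid bacterium, together took 31.1%, 22.3%, 32.7%, 23.8% and 15.6% of counts in Sham and 54.7%, 24.97%, 53.0%, 55.5% and 52.2% in OVX. In 4 of the 5 OVX libraries their sum was above all Sham libraries. With both genera removed and all libraries set to 4322 reads, Sham libraries held 327.6 ± 26.7 expected ASVs and OVX libraries 230.2 ± 35.7 (SD, n = 5, difference -97.4, exact permutation p = 0.00794). The groups again did not overlap. Before that draw Sham libraries kept 6706 to 17081 reads and OVX libraries 4322 to 8309. The rarest ASVs of each library are missing from the counts, so the draw may not fully remove this difference in reads. With the 5 leading genera removed, at 2610 reads, the difference was -87.3 (exact permutation p = 0.0159).

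Within Lachnospiraceae, at 1016 reads of the family from each library, 137.3 ± 18.03 ASVs were expected in Sham and 86.8 ± 33.4 in OVX (SD, n = 5). Again 4 of 5 OVX libraries lay below all Sham libraries and OVX replicate 2, at 140.9, did not (difference -50.5, exact permutation p = 0.0317, adjusted p = 0.0952 over 3 families). Without OVX replicate 2 the difference was -64.0 and the adjusted exact permutation p 0.0238. Before the draw Lachnospiraceae had 2667, 3564, 4113, 7451 and 4679 reads in Sham and 1520, 4280, 1730, 1117 and 1016 in OVX. The rarest ASVs are missing from the counts, so the draw may not fully separate the diversity of a family from its reads. Within Oscillospiraceae, at 1224 reads, the values were 85.8 and 72.3 (exact permutation p = 0.135, adjusted p = 0.202), and without OVX replicate 4 the difference was -18.9 with an adjusted p of 0.0476. Without ASVs seen in 1 of the 25 libraries, both families passed with an adjusted p of 0.0476. Without the deep Sham replicates 3 and 4, neither passed, but that test has fewer splits and 1 family could not have passed alone. The differences were then -48.7 in Lachnospiraceae and -10.8 in Oscillospiraceae (adjusted exact permutation p = 0.268 and 0.482). Within Erysipelotrichaceae only 18 reads per library could be compared (exact permutation p = 0.238).

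ASVs seen in only 1 group were also more numerous in Sham. Detection depends on depth, so these numbers are given without a test. There were 460 ASVs with counts in Sham only, 262 in OVX only and 448 in both, 38 of which were in all 10 libraries. Set to equal depth, the first 2 numbers would be expected at 445.7 and 264.9. Sham-only ASVs held 12.8% of Sham counts and OVX-only ASVs 6.89% of OVX counts, and 71.3% and 84.7% of these ASVs were seen in a single library of the 10. In Lachnospiraceae 252 ASVs were seen in Sham only and 107 in OVX only, whereas in Oscillospiraceae the numbers were 97 and 98.

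ASVs in at least 3 libraries of 1 group and none of the other numbered 40 on the Sham side and 9 on the OVX side. Of the 40, 23 were Lachnospiraceae and 10 Oscillospiraceae, families that held 529 and 327 of the 1170 ASVs with counts. In the 15 libraries of the 3 other ovariectomised groups, these 40 had counts in a median of 1.5 libraries, with a range of 0 to 6. For the 9 the median was 4 libraries, and for the 38 ASVs found in all 10 libraries it was 15.

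Only 2 ASVs had counts in all 5 libraries of 1 group and none of the other, both on the Sham side. ASV_219, assigned to Pseudoflavonifractor phocaeensis of the Oscillospiraceae, had 6, 17, 23, 29 and 7 counts. ASV_245, assigned to Acetivibrio alkalicellulosi, a cellulose degrader, had 15, 20, 6, 9 and 8. Chosen after their values were seen, ASV_54 of Kineothrix alysoides (76, 52, 109, 31 and 28 counts in Sham, and 15 in OVX replicate 4 alone) and ASV_67 of Eubacterium xylanophilum (43, 130, 55, 52 and 50, and 25 in OVX replicate 3 alone) came close to this pattern at higher counts. Such ASVs were not absent from ovariectomised mice in general. The 6 with counts in all 5 Sham libraries and 0 or 1 OVX library had counts in a median of 5 of the 15 other ovariectomised libraries, range 3 to 8. ASV_54 had counts in 5 OVX+GEX, 3 OVX+PBS and 0 OVX+FMT libraries.

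Some genera and species had counts in 1 group alone. Counts were found in Sham only for 16 genera and in OVX only for 4, with 80 in both. Detection depends on depth, so these numbers too are given without a test. Most of the 16 were seen in a single library on few counts, such as Enorma (4) and Gemmiger (3) in the deep Sham replicate 3. Of those in OVX only, Gordonibacter had 2 counts and Shigella 3, each in 1 library. For species the numbers were 25, 8 and 122. Set to equal depth and summed over genera, lower presence amounted to -12.1 genera and higher presence to 4.26.

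Turning from numbers of taxa to their abundance, no taxon passed the test. Counts were tested with edgeR's quasi-likelihood test after Benjamini-Hochberg adjustment: 0 of 28 families (0%), 0 of 81 genera (0%), 0 of 125 species (0%) and 0 of 379 ASVs (0%) had an adjusted p under 0.05. Unadjusted p-values under 0.05 numbered 3, 9, 10 and 65, DESeq2 called 1, 1, 1 and 2, and limma on centred log-ratios called 1, 1, 3 and 6. By estimate, 11 families were higher and 17 lower in OVX, 44 genera higher and 37 lower, 59 species higher and 65 lower, and 160 ASVs higher and 214 lower. The median log2 fold change of genera was 0.15, which was -0.22 when scaled by plain library totals. All fold changes below are therefore relative to the scaling and did not pass.

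The large families had wide spread within groups. Lachnospiraceae took 27.4%, 36.5%, 23.7%, 33.3% and 46.2% of counts in Sham and 13.5%, 38.6%, 18.8%, 11.03% and 10.5% in OVX. All OVX libraries other than replicate 2 lay below all Sham libraries (log2 fold change -0.98, SE 0.48, edgeR's quasi-likelihood test, adjusted p = 0.309). Shares do not tell a smaller population from growth of the others. Lactobacillaceae took 12.03% ± 6.49 of Sham and 25.3% ± 13.04 of OVX counts, and OVX replicates 3, 4 and 5, at 36.1%, 38.2% and 29.1%, exceeded all Sham libraries. Muribaculaceae took 13.2% ± 5.91 and 23.3% ± 13.1 (SD, n = 5), with the highest value, 45.4%, in OVX replicate 1. Thus the lactobacilli led in 3 OVX libraries, Muribaculaceae in replicate 1 and Lachnospiraceae in replicate 2.

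**Figure D4:**
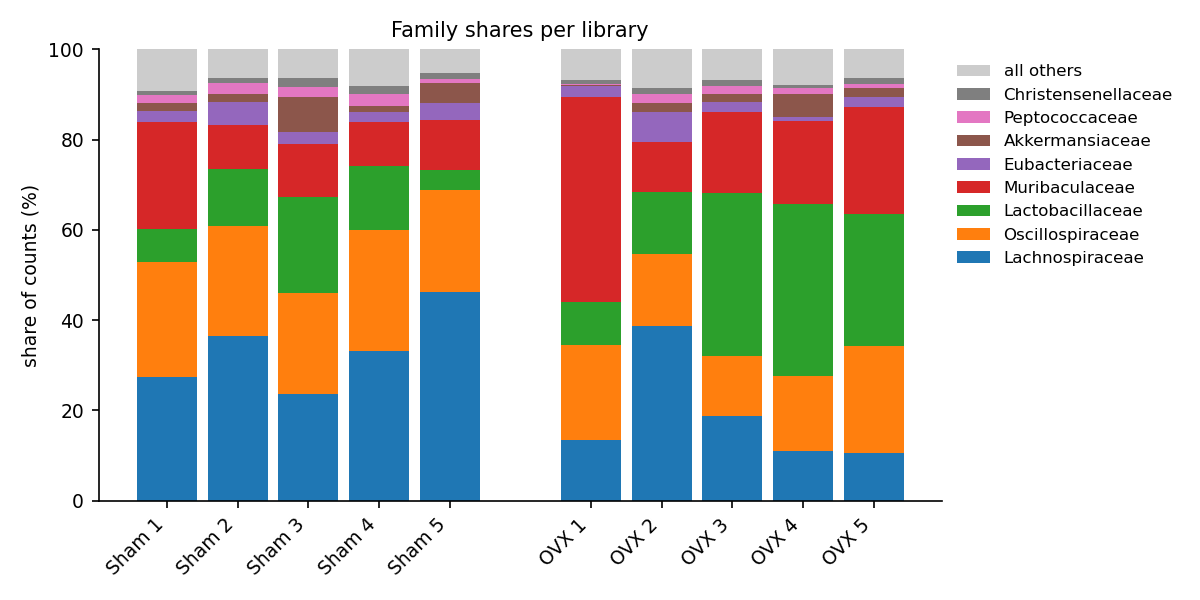
Share of counts (%) of the 8 most abundant families in each library, with all other families in grey. Lachnospiraceae took 10.5% to 18.8% of counts in 4 OVX libraries and 38.6% in OVX replicate 2, against 23.7% to 46.2% in Sham.

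Oscillospiraceae took 25.4%, 24.3%, 22.3%, 26.6% and 22.5% of counts in Sham and 21.001%, 15.9%, 13.3%, 16.6% and 23.8% in OVX. Again 4 OVX libraries lay below all Sham libraries, but the exception here was replicate 5 (log2 fold change -0.60, SE 0.34, edgeR's quasi-likelihood test, adjusted p = 0.309). Among the other families with a mean share of at least 1%, the mucin-degrading Akkermansiaceae took 3.34% of Sham and 2.24% of OVX counts. Eubacteriaceae were at 3.23% and 2.89%, Peptococcaceae at 2.03% and 1.22%, Clostridiaceae at 1.33% and 0.870%, Christensenellaceae at 1.40% and 1.12%, Bacteroidaceae at 1.25% and 1.03% and unplaced Eubacteriales at 0.758% and 1.32%. Within most families the estimates of ASVs were split, as in Oscillospiraceae, with 50 higher and 66 lower, and Clostridiaceae, with 6 and 6. In 3 families they were one-sided. All 10 tested ASVs of Lactobacillaceae and all 15 of Muribaculaceae had higher estimates in OVX, though 3 of the 15 turned with DESeq2 size factors and 1 in limma. All 9 of Peptococcaceae were lower, though 3 of the 9 turned with plain library totals. In Lachnospiraceae 40 ASVs were estimated higher and 86 lower, with a median log2 fold change of -0.79 against -0.28 over all 379 ASVs tested.

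Of the 10 tested Lactobacillaceae ASVs, 9 were assigned to Ligilactobacillus murinus and 1 to Lactobacillus intestinalis. The counts of a leading pair of the former, ASV_2 and ASV_3, stood in a ratio of 0.827 to 1.12 in every library.

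Whole communities were compared by the share of Bray-Curtis distance that the grouping accounted for (R2). It was 0.315 for families, 0.249 for genera, 0.229 for species and 0.220 for ASVs (exact permutation p = 0.0317, 0.0397, 0.0714 and 0.0238, adjusted p = 0.0529, 0.0529, 0.0714 and 0.0529 over 4 ranks). Without OVX replicate 2, R2 was 0.490, 0.374, 0.343 and 0.278, each with an adjusted p of 0.00794. All 4 ranks also passed without Sham replicate 1 (R2 of 0.344, 0.280, 0.253 and 0.238) or OVX replicate 1 (0.395, 0.329, 0.298 and 0.265). Without any 1 of the other 7 libraries no rank passed, with adjusted p-values of up to 0.111, 0.135, 0.135 and 0.111. Distances that give rare taxa more weight passed in all 10 libraries: by presence alone (Jaccard) R2 was 0.281, 0.202, 0.182 and 0.145, and by log-ratios (Aitchison) 0.210, 0.187, 0.164 and 0.1502, with adjusted exact p-values from 0.0106 to 0.0238. For ASVs the mean Jaccard distance was 0.696 within Sham, 0.755 within OVX and 0.752 between groups. The Aitchison means were 61.8, 54.8 and 60.8. For families by Jaccard they were 0.202, 0.201 and 0.246. Counts were not set to equal depth here. The test also does not tell a shift between groups from unequal spread within them.

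A few low-abundance taxa separated the groups completely. Pseudoflavonifractor was the 1 genus of 81 (1.23%) below all Sham libraries in every OVX library, at 0.092%, 0.246%, 0.184%, 0.152% and 0.257% in Sham and 0.071%, 0%, 0%, 0.049% and 0.031% in OVX. Among species 2 of 125 (1.6%) did so. Pseudoflavonifractor phocaeensis, with the counts of ASV_219 given above, was at least 3.85-fold lower in OVX against a floor of 3 counts per library. Anaerotignum lactatifermentans, a lactate-fermenting clostridium, had 13, 8, 4, 6 and 5 counts in Sham and 0 in every OVX library, at least 2.14-fold lower. Both were called by limma (adjusted p = 0.0293 and 0.00119) but had an adjusted p of 0.185 in edgeR's quasi-likelihood test.

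Among ASVs 5 of 379 (1.32%) were below all Sham libraries in every OVX library. They were ASV_219, ASV_245, ASV_41 of Solibaculum mannosilyticum, ASV_17 of Gluceribacter canis and ASV_90 of Anaerobacterium chartisolvens. ASV_17 was the most abundant of them, with 200, 133, 353, 295 and 191 counts in Sham and 136, 117, 65, 72 and 88 in OVX. No genus, species or ASV tested was above all Sham libraries in every OVX library.

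Haploplasma axanthum, a wall-less bacterium, had the smallest p of the genera and species estimated higher in OVX. It had 0 counts in every Sham library and 29, 7, 0, 8 and 9 in OVX, at least 4.05-fold higher (edgeR's quasi-likelihood test, adjusted p = 0.225 as a genus, against 0.00104 in limma). In the 15 other ovariectomised libraries it was found in 1. Butyribacter intestini had 35, 3, 100, 144 and 53 counts in Sham and 11, 0, 0, 0 and 0 in OVX, so the groups overlapped only through Sham replicate 2 and OVX replicate 1. Its log2 fold change as a genus was -3.85 (SE 1.88, edgeR's quasi-likelihood test, adjusted p = 0.406).

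**Figure D5:**
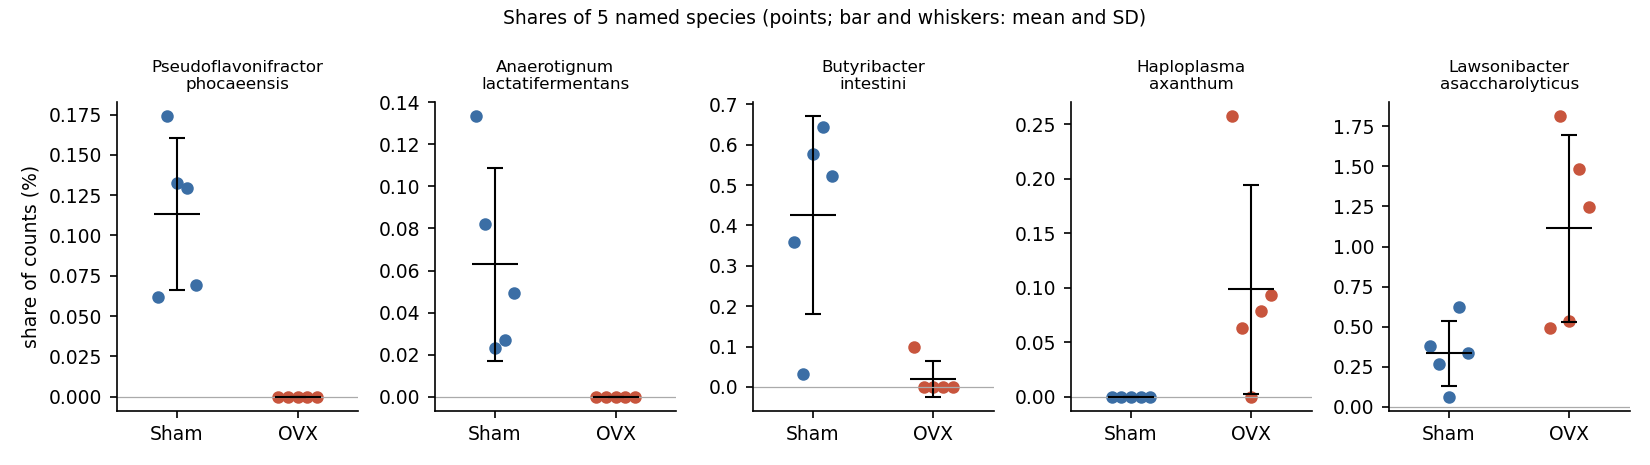
Share of counts (%) of 5 named species in each library, with the mean and SD of each group; the vertical scale differs between panels. Pseudoflavonifractor phocaeensis and Anaerotignum lactatifermentans were at 0 in all OVX libraries, and Haploplasma axanthum at 0 in all Sham libraries.

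The other genera with the smallest p-values toward OVX were Lawsonibacter, a butyrate former (0.333% ± 0.201 and 1.11% ± 0.586, SD, n = 5), Ligilactobacillus (11.9% and 24.8%), Lactobacillus (0.173% and 0.550%), Romboutsia (0.023% and 0.195%) and Adlercreutzia, which includes equol formers (0.458% and 0.713%). Lawsonibacter exceeded all Sham libraries in 3 of 5 OVX libraries (log2 fold change 2.19, SE 0.73, edgeR's quasi-likelihood test, adjusted p = 0.225). Toward Sham they were Aminipila, with counts in 4 Sham and 0 OVX libraries, [Bacteroides] of the species name pectinophilus, likewise in 4 and 0, Anaeroplasma in 3 and 0, and Clostridium, at 0.330% and 0.065%. Against a floor of 3 counts per library, Aminipila was at least 1.24-fold and [Bacteroides] at least 1.66-fold lower in OVX. Bounds as small as these may not hold if single reads stand as 0. For Anaeroplasma the depth allowed no fold.

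Single ASVs with the smallest p-values were present in only some libraries of 1 group. ASV_107 of Ruminococcus gauvreauii had 58, 36 and 74 counts in OVX replicates 3, 4 and 5 and 0 in all other libraries of both groups, at least 14.4-fold higher. ASV_131 of Peptococcus niger had 41, 43, 31 and 100 counts in Sham replicates 1 to 4 and 0 in the other 6 of the 10 libraries, at least 10.1-fold lower. ASV_47 of Ruminococcus callidus rested on Sham replicates 1 and 5, with 58 and 185 counts. Both directions occurred within a single species name: among the 10 libraries, ASV_119 and ASV_255 of Kineothrix alysoides had counts in 3 and 2 OVX libraries and no Sham library, and ASV_114 of the same name in 3 Sham libraries and no OVX library. All 12 ASVs named by p-value had an adjusted p of 0.158 in edgeR's quasi-likelihood test.

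Genera were also grouped by what their members are known to do, with the caution that a genus name does not show which genes these bacteria carried. No member of any group passed edgeR's quasi-likelihood test; DESeq2 called Shigella, of the trimethylamine-forming group, on 3 counts in OVX replicate 4. The 10 butyrate-forming genera with counts held 65.9, 63.9, 64.3, 73.2 and 86.9 expected ASVs in Sham and 32.8, 60.7, 52.0, 38.8 and 33.9 in OVX, all OVX libraries below all Sham libraries. The ASVs of all taxa together were likewise lower in every OVX library, with a mean difference of -29.5%. The separation was therefore not particular to butyrate formers. Their summed share overlapped between groups, at 15.1% ± 6.71 and 9.96% ± 5.86 (SD, n = 5). Of the 9 tested, 5 had higher and 4 lower estimates in OVX, with a median log2 fold change of 0.29 against 0.15 over all 81 genera. Of the difference of -27.2 expected ASVs, Kineothrix made up -16.0 and Eubacterium -4.70.

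Trimethylamine-forming genera, whose members can turn choline into trimethylamine, held 8.37% ± 3.56 of Sham and 4.58% ± 4.85 of OVX counts. OVX replicate 2, at 13.05%, lay inside the Sham range and the other 4 OVX libraries, at 1.23% to 3.98%, below it. Lachnoclostridium alone took 6.80% of Sham and 3.47% of OVX counts. Of the 5 genera tested, 3 had higher and 2 lower estimates in OVX. Their median log2 fold change was 0.14, against 0.15 over all 81 genera. Plant-fibre clostridia took 20.4% ± 1.08 of Sham counts, with little spread, and 18.9%, 14.2%, 11.6%, 11.3% and 21.6% of OVX counts. Acetogens took 2.55% and 1.96% and had 16.1 and 9.79 expected ASVs, lactic acid bacteria and bifidobacteria 12.04% and 25.4%, mucin users 4.75% and 3.34%, and equol and steroid transformers 0.460% and 0.717%. Of 10 genera known as reagent contaminants, 0 had counts.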

How the data were processed

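The deposited table held read counts per ASV, whole numbers with no normalization, which the authors had exported from BIOM format, per the file headers. DNA came from stool and was read as long PacBio molecules, per the labels' protocols. Subread stands in the submitters' processing notes without its purpose. How reads were denoised and named, and with which primers, was not given in the labels. Columns were matched to samples by name, and 5 columns spelled OVX+GES were taken as OVX+GEX.

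Counts were summed per rank and tested with edgeR 4.0.16 (R 4.3.3): TMM, quasi-likelihood F test, all 25 libraries in 1 fit, a minimum of 3 counts in 5 or more libraries, Benjamini-Hochberg, threshold 0.05. Standard errors came from the F statistic. Other measures used exact two-sided permutation tests of 5 against 5. Shannon and Pielou values used natural logarithms of unrarefied shares. Taxa to name were families with a mean share of at least 1%, the 6 genera, species and ASVs each way with the smallest p, the 10 genera and the families contributing most to richness, and ASVs in all 5 libraries of 1 group and none of the other. List members with a mean share of at least 0.5% could also be named. Alternatives were DESeq2 1.42.0, limma 3.58.1 with 0.5 added to each count, other scalings, filters and distances, each replicate left out, and the replicate number as a block. The edgeR test was tried on simulated counts with known changes. The comparison, taxon lists and tests were chosen with earlier results of these data known.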

Additional observations from a re-analysis of the deposited data

Results flagged for a closer look

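Of 74 checks of a group of 5 for a library far from the other 4 (37 measures in each group), 13 met the criterion. A single check flags about 1 in 20 by chance. Many measures overlap, such as the Shannon index and Pielou evenness, so the 13 cannot be set against that rate. OVX replicate 2 stood highest of its group in the Shannon index (4.92, the others at most 4.29), Pielou evenness (0.853, the others at most 0.785), the share of Eubacteriaceae (6.46%, the others at most 2.45%) and the expected ASVs of Lachnoclostridium (32.9) and Lacrimispora (19.9, the others at most 7.96). OVX replicate 1 stood highest in genus richness (63.6, the others at most 59.9), the share of Bacteroidaceae (1.84%) and the expected ASVs of Lactobacillaceae (10.99, all others near 10) and Butyribacter (1.00, the others at 0).

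Sham replicate 1 stood apart by its shares of Muribaculaceae (23.7%, the others at most 11.7%) and Bacteroidaceae (2.81%, the others at most 0.991%). Sham replicate 4 did so by its share of unplaced Eubacteriales (1.72%, the others at most 0.622%), and Sham replicate 5 by the expected ASVs of Kineothrix (53.9, the others at most 36.0).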

How the results depend on the processing

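ASV richness kept its direction in every alternative, from -122.2 to -91.2 when any 1 library was left out. With the replicate number as a block its difference of -105.6 and that of the Shannon index, -0.55, had an exact p of 0.0625 and an adjusted p of 0.125; genus richness (-7.88) and species richness (-15.76) then had an adjusted p of 0.0833. With 5 blocks the exact p cannot go below 0.0625, so the blocked test could not have passed and says nothing on stability. The replicate numbers showed no sign of pairing the libraries: deviations of same-numbered libraries correlated at -0.22 to 0.13. These few values cannot exclude shared cages or litters, which the labels did not give. Without Sham replicates 3 and 4, chosen after seeing the data, ASV richness differed by -86.8 and the Shannon index by -0.58 (adjusted p = 0.107 for each), genus and species richness by -6.52 and -11.9 (adjusted p = 0.0357 for each), and family richness turned to 0.88. Left-out libraries gave -0.70 to -0.50 for the Shannon index, -0.0620 to -0.0378 for Pielou evenness, -0.16 to 0.78 percentage points for the share of the most abundant ASV (-0.14 without Sham replicate 5) and -1.57 to 0.07 for family richness, where 0.071 came without Sham replicate 3.

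Within Lachnospiraceae left-out libraries gave -64.0 to -43.8 and within Oscillospiraceae -18.9 to -8.92, with adjusted exact permutation p-values of up to 0.167 and 0.357. Without ASVs seen in 1 of 25 libraries the differences were -41.9 and -18.6 (adjusted p = 0.0476 for each). Bray-Curtis R2 ran from 0.258 to 0.490 for families, 0.211 to 0.374 for genera, 0.190 to 0.343 for species and 0.199 to 0.278 for ASVs. Jaccard R2 was 0.281, 0.202, 0.182 and 0.145 and Aitchison R2 0.210, 0.187, 0.164 and 0.1502, from counts not set to equal depth.

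DESeq2's Wald test called 1 family, 1 genus and 1 species, all resting on 3 counts named Shigella in OVX replicate 4, and 2 ASVs, ASV_107 and ASV_47. Limma called 1 family, 1 genus, 3 species and 6 ASVs. A fit of only the 10 libraries called 2 species, and 1 ASV passed with no filter on low counts. Estimates that did not pass also turned. Without the filter the log2 fold change was 0.10 for Oscillospiraceae, 0.20 for Christensenellaceae, 0.22 for Eubacteriaceae and 0.19 for Bacteroidaceae. Eubacteriaceae stood at 0.13 with DESeq2 size factors and between -0.71 and 0.17 without any 1 library, and Bacteroidaceae at 0.25 without Sham replicate 1 and 0.05 without OVX replicate 4. Expected ASVs of Anaerobacterium differed by -4.16 to 1.87 without any 1 library and by 1.20 without Sham replicates 3 and 4, and those of Spiroplasma by 0.21 with counts under 5 set to 0. The causes were not tested.

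With 5 libraries in each group the exact test cannot go below p = 0.00794. Taxa held by few counts could not be told from absent ones, and the missing values of 1 remove the rarest ASVs.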

Other observations

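The numbers of the 3 other ovariectomised groups, given as values with no test, lay nearer to OVX than to Sham at 3 ranks. Expected genera averaged 58.5 in OVX+GEX, 53.5 in OVX+PBS and 61.2 in OVX+FMT, against 60.1 in OVX and 68.0 in Sham. Expected species averaged 84.7, 76.8 and 86.5, against 86.0 and 101.8, and expected ASVs 230.5, 212.1 and 243.3, against 252.3 and 357.9. OVX+PBS had the widest spread, with 43.0 to 63.7 genera per library. Butyribacter, found in 1 of 5 OVX libraries, had counts in 5 of the 15 libraries of these groups, Aminipila in 7 and [Bacteroides] in 1.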
